A study of Mus musculus with 8 samples.

Results

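The genes of apoptosis, caspase activation and necroptosis were a set of 32 genes listed by symbol for their part in cell death, of which 31 were matched among the 19505 named genes on the arrays, each by 1 probe set. Ripk1 was not matched and was not analysed here. The set comprised 6 pro-survival genes, 20 pro-death genes and 6 genes kept out of both sides for further roles in the cell (Cycs, Aifm1, Endog, Tradd, Dffa and Ripk1). The sides were assigned by choice, and genes on a side may have other roles too. CD4 and CD8 T cells were isolated from spleens of male wild-type C57BL/6 mice with a pan-T-cell kit and activated with anti-CD3/anti-CD28 microbeads, at 1 bead a cell. They were cultured for 48 h with either PBS, the vehicle (4 arrays), or human beta-defensin-2 (hBD-2, 4 arrays), a cationic antimicrobial peptide of epithelia, given in the labels as a volume of 60 µL/mL. Both groups were therefore activated and neither holds resting cells. The labels name 4 mice without linking arrays to them, so p-values measure the spread between these arrays.

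Mitochondrial apoptosis is governed by the BCL-2 family. Anti-apoptotic members hold the pore-forming effectors BAX and BAK in check, and BH3-only members relieve that hold, after which cytochrome c leaves the mitochondria and caspase-9 is activated. Death receptors instead assemble FADD and caspase-8, and cFLIP (the product of Cflar) limits that activation. Where caspase-8 is blocked, RIPK1 and RIPK3 can pass the signal to MLKL, which breaks the plasma membrane in necroptosis. Activated T cells depend on these balances, because death of expanded cells ends an immune response.

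All values are log2 RMA values, a scale on which a difference of 1 is a doubling of signal, and differences are given as hBD-2 minus PBS. RNA was taken from bulk cultures, so fewer cells of a type and less RNA per cell cannot be told apart. The interquartile range of values on an array was 3.60 to 3.75 on PBS arrays and 3.42 to 3.63 on hBD-2 arrays, narrowest on hBD-2 replicates 3 and 4 (3.42 and 3.43). The part of this narrowing in the results was not tested, and values with the arrays rescaled are given where they matter. The 8 T cell markers, Cd3e and Cd4 among them, lay between 9.29 and 11.6 on every array with none past the threshold. Of the markers of other spleen cells, Cpa3 and Fcer1a of mast cells and basophils (2 of 5 matched) and Klf1 of erythroid cells (1 of 1) were higher with hBD-2, and Itgam of macrophages and monocytes (1 of 5) was lower. Kit, of the same mast cell list, had a log2 difference of the other sign (-0.67, limma adjusted p = 0.0744), against 0.98 for Cpa3 and 0.57 for Fcer1a. Mcpt8 (0.51, without overlap, limma adjusted p = 0.219) and Ms4a2 (0.17, limma adjusted p = 0.303) had higher means and were not past the threshold. Kit had the highest mean of the 5 in both groups (6.64 in PBS and 5.97 in hBD-2), so it weighs most in their sum. The summed signal of the 5 matched mast cell and basophil markers spanned 155 to 188 in PBS and 143 to 211 in hBD-2, that of the 5 macrophage and monocyte markers 75.1 to 95.9 and 71.6 to 100.3, and Klf1 alone 27.7 to 32.3 and 36.3 to 45.3, on a linear scale. The 3 natural killer cell (summed signal 108 to 139 in PBS, 87.2 to 113 in hBD-2), 4 matched neutrophil (62.7 to 75.8 and 59.8 to 75.9), 4 dendritic cell (39.2 to 47.2 and 44.0 to 55.7) and 3 platelet markers (222 to 302 and 276 to 366) had none past the threshold, nor had the B cell markers. The summed signal of the 5 matched B cell markers was 275 and 299.9 in PBS replicates 2 and 4 and 494 and 515 in hBD-2 replicates 2 and 4, against 132 to 165 on the other arrays. The part of these cells in the results was not tested.

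With hBD-2, 2 of the 31 genes were lower and none was higher at a limma adjusted p under 0.05. The 2 genes were Cflar, the caspase-8 inhibitor (log2 difference -0.56), and Ripk3, the necroptosis kinase (-0.49). The called share was 6.45%, against 4.46% of all 19505 genes, and 3.66% of all genes were called lower. Each of the 31 was among the 11703 genes from the percentile 40 of level upwards, Bmf lying nearest to that cut (percentile 41.9). Of these 11703 genes 6.82% were called, so the share called in the set was near the background. Of all called genes 82.0% were lower with hBD-2, and this share was 68.4% with quantile normalization repeated and 71.7% with cyclic loess. At an unadjusted limma p under 0.05 the set held 5 lower genes and 1 higher gene. That limit was passed by 22.3% of all genes and by 29.3% of the 11703 genes of that level. The groups did not overlap in 6 of the 31 genes (19.4%), against 14.9% of all genes. This share was not computed for the 11703 genes alone. The 6 genes were Cflar, Ripk3, Casp6, Casp8 and Cycs, with lower values in hBD-2, and Mcl1, with higher values. The log2 differences of the 29 genes not past the threshold lay between -0.33 and 0.26.

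**Figure D1:**
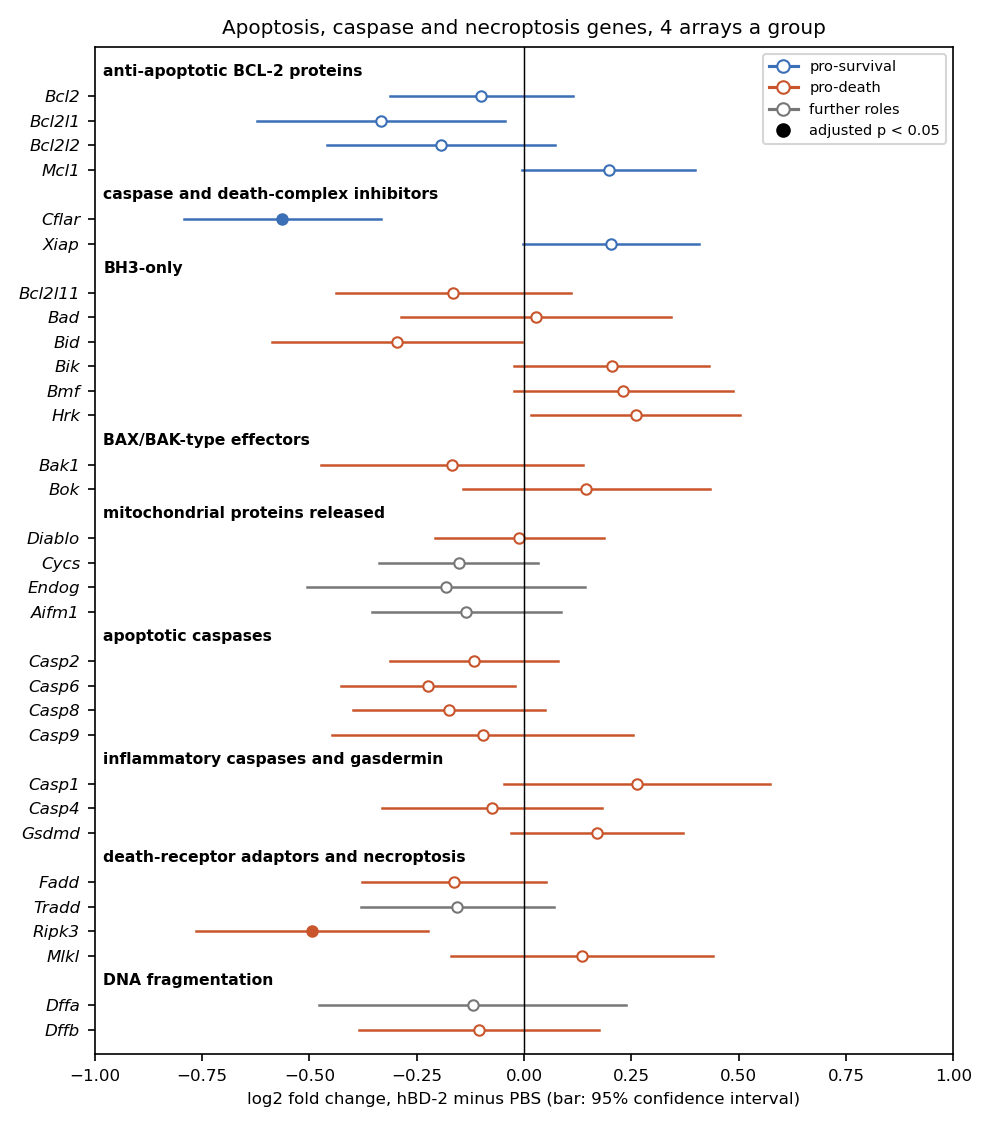
Log2 fold change of each of the 31 matched genes, hBD-2 minus PBS, on the x axis in log2 units, with the gene on the y axis grouped by role. Points are the differences of means over 4 arrays a group, bars are 95% confidence intervals, colours give the side of the gene, and filled points mark a limma adjusted p under 0.05. The 2 filled points are Cflar at -0.56 and Ripk3 at -0.49, and the others lie between -0.33 and 0.26.

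Cflar encodes cFLIP, a caspase-8 relative without protease activity that sits in the death receptor complex. Its values were 8.50, 8.49, 8.60 and 8.45 in PBS replicates 1 to 4 and 8.17, 7.80, 7.81 and 8.02 in hBD-2 replicates 1 to 4. Every hBD-2 array lay below every PBS array, with hBD-2 replicate 1 nearest to them. Cflar fell 1.48-fold, with a log2 difference of -0.56 (SE 0.10, 95% confidence interval -0.79 to -0.33, limma adjusted p = 0.0127). The call held without any single array (limma adjusted p from 0.00696 to 0.0435), with quantile normalization repeated (-0.47, adjusted p = 0.0309) and with cyclic loess (-0.48, adjusted p = 0.0275). It was lost when both hBD-2 replicates 3 and 4 were left out, at a log2 difference of -0.53 (limma adjusted p = 0.125).

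Ripk3 encodes the kinase that phosphorylates MLKL. Its values were 8.47, 8.47, 8.42 and 8.51 in PBS and 8.30, 7.97, 7.66 and 7.97 in hBD-2, in replicate order. The PBS arrays lay close together (SD 0.036), all above the hBD-2 arrays, which spread more widely (SD 0.26), hBD-2 replicate 3 being lowest. Ripk3 fell 1.41-fold, with a log2 difference of -0.49 (SE 0.12, 95% confidence interval -0.76 to -0.22, limma adjusted p = 0.0461). This call was close to the threshold. It was lost without PBS replicate 1, 2, 3 or 4 (limma adjusted p = 0.110, 0.110, 0.0744 and 0.113) and without hBD-2 replicate 2, 3 or 4 (limma adjusted p = 0.0855, 0.102 and 0.108), and was kept without hBD-2 replicate 1 (0.0116). The Ripk3 difference itself lay between -0.51 and -0.48 without single PBS arrays. Without single hBD-2 arrays it ranged from -0.60 (replicate 1 left out) to -0.39 (replicate 3 left out). With quantile normalization repeated the difference was -0.39 (limma adjusted p = 0.0752), and with cyclic loess -0.41 (0.0664). Without both hBD-2 replicates 3 and 4 it was -0.33 (limma adjusted p = 0.274).

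The sequences before the start sites of these 2 genes are shown because they were the only members past the threshold. They are the 250 bases before the start in the RefSeq promoter table of build GRCm38.p6, which holds 1 entry for each gene, printed 5′ to 3′ on the gene's strand, with capitals marking motif matches. The Cflar sequence is chr1:58711241-58711490 on the plus strand and the Ripk3 sequence chr14:55788858-55789107 on the minus strand.
Cflar: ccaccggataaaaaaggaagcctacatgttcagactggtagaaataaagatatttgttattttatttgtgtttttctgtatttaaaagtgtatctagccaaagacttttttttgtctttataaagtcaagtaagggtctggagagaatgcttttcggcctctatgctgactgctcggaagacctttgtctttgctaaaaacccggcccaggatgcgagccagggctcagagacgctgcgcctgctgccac
Ripk3: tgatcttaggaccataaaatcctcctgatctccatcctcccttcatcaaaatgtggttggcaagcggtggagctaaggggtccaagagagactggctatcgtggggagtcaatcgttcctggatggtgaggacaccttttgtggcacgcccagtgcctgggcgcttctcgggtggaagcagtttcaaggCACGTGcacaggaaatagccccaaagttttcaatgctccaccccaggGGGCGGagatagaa
Both strands were searched for the core of hypoxia response elements (ACGTG), for the GC box (GGGCGG), for the AP-1 site (TGANTCA) and for the NF-kappaB consensus. The Ripk3 window held the E-box CACGTG, which contains the hypoxia core on both strands, and 1 GC box. No match to any of these motifs was in the Cflar window. Over all 32851 windows of the same length in the table, 16.6% held ACGTG, 32.7% GGGCGG, 6.75% TGANTCA and 3.90% the NF-kappaB consensus. The GC content was 42.8% before Cflar and 54.0% before Ripk3, and the median window had 52.4%. A match describes the letters of the window and does not show a bound site.

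Of the partners of these proteins in the death receptor complexes, Casp8, Fadd and Tradd were not past the threshold, and Ripk1 was not matched. Casp8, the protease that cFLIP restrains, was at 10.64, 10.77, 10.60 and 10.67 in PBS and 10.58, 10.58, 10.25 and 10.58 in hBD-2. Its groups did not overlap by a narrow margin, and hBD-2 replicate 3 stood below the other arrays. The difference for Casp8 was -0.18 (95% confidence interval -0.40 to 0.048, limma adjusted p = 0.339), and -0.093 without that array. Fadd, the adaptor that recruits caspase-8, had overlapping values of 6.88 to 7.14 in PBS and 6.70 to 6.91 in hBD-2, a difference of -0.16 (95% confidence interval -0.38 to 0.051). It was -0.11 without PBS replicate 1 and -0.085 with quantile normalization repeated. Tradd, the adaptor of the tumour necrosis factor receptor, spanned 7.26 to 7.58 and 7.17 to 7.37, a difference of -0.15 (limma adjusted p = 0.402), and -0.065 with quantile normalization repeated.

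Mlkl, the executor downstream of RIPK3, had a higher mean with hBD-2, within the spread of the arrays. Its values were 7.07, 7.43, 6.68 and 7.07 in PBS and 7.09, 7.19, 7.32 and 7.20 in hBD-2, so that the hBD-2 arrays lay inside the range of the PBS arrays. The log2 difference was 0.14, with a 95% confidence interval of -0.17 to 0.44 (limma adjusted p = 0.612). It was 0.0087 without PBS replicate 3, 0.26 without PBS replicate 2 and 0.22 with quantile normalization repeated. Whether the differences of Ripk3 and Mlkl differ from each other was not tested.

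**Figure D2:**
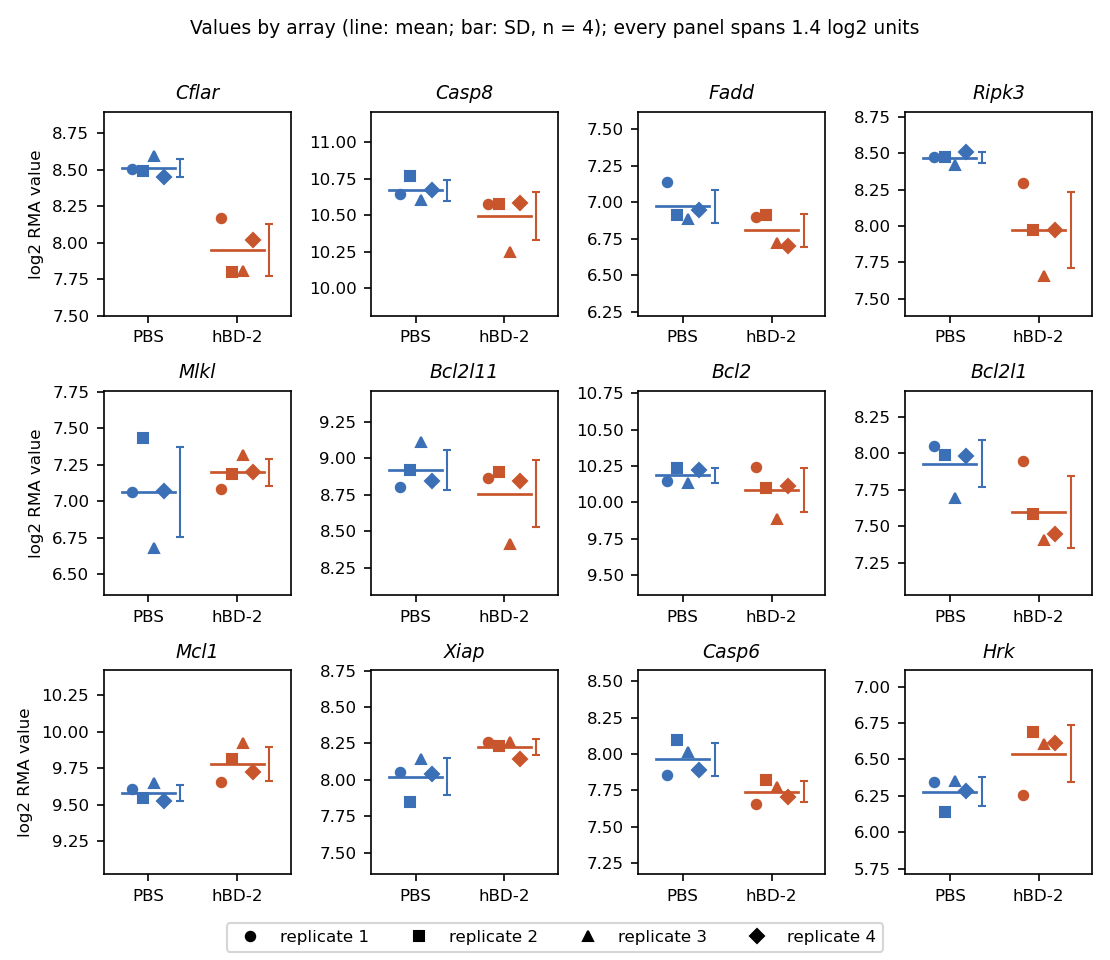
Log2 RMA values (y axis) of 12 of the 31 genes on each array, by group (x axis), with a marker shape for each replicate number. Horizontal lines are group means and bars at the side are SDs with n = 4. In Cflar and Ripk3 the 4 hBD-2 arrays lie below the 4 PBS arrays, while in Mlkl the hBD-2 arrays lie inside the range of the PBS arrays.

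Among the 4 anti-apoptotic BCL-2 genes none passed the threshold, 3 having a lower and 1 a higher mean. Bcl2, which keeps resting and memory T cells alive, was at 10.13 to 10.24 in PBS and 9.88 to 10.25 in hBD-2, a log2 difference of -0.099 (95% confidence interval -0.31 to 0.11). With quantile normalization repeated it was -0.018, and without hBD-2 replicate 3 it was -0.032. Bcl2l1 encodes BCL-XL, the form induced on T cell activation. Its values were 8.05, 7.99, 7.69 and 7.98 in PBS and 7.95, 7.59, 7.41 and 7.45 in hBD-2. PBS replicate 3 and hBD-2 replicate 1 lay nearest to the other group, and the groups overlapped. For Bcl2l1 the log2 difference was -0.33 (SE 0.13, 95% confidence interval -0.62 to -0.044, limma adjusted p = 0.168). Without hBD-2 replicate 1 it was -0.45 and past the threshold (limma adjusted p = 0.0408), the only 1 of 15 alternatives in which Bcl2l1 passed. With quantile normalization repeated the Bcl2l1 difference was -0.23 (limma adjusted p = 0.273), and with cyclic loess -0.25 (0.254). Over the 15 alternatives it ranged from -0.45 to -0.16. Bcl2l2, which encodes the related BCL-W, spanned 6.54 to 6.81 and 6.11 to 6.61, a difference of -0.19 (limma adjusted p = 0.376), and -0.081 without hBD-2 replicate 2.

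Mcl1, a short-lived anti-apoptotic protein that lymphocytes need, had the opposite sign to the other 3. Its values were 9.61, 9.55, 9.65 and 9.52 in PBS and 9.65, 9.81, 9.93 and 9.72 in hBD-2. All hBD-2 arrays lay above all PBS arrays, though hBD-2 replicate 1 and PBS replicate 3 were nearly level. The log2 difference of Mcl1 was 0.20 (SE 0.092, 95% confidence interval -0.0035 to 0.40, limma adjusted p = 0.232). Xiap, an inhibitor that binds active caspases directly, was at 8.06, 7.84, 8.15 and 8.04 in PBS and 8.26, 8.23, 8.26 and 8.14 in hBD-2. Its groups overlapped only through PBS replicate 3 and hBD-2 replicate 4, and the log2 difference was 0.20 (95% confidence interval -0.0016 to 0.41, limma adjusted p = 0.228). With quantile normalization repeated the differences were 0.29 for Mcl1 and 0.30 for Xiap, both still short of the threshold (limma adjusted p = 0.114 and 0.0900).

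None of the 6 BH3-only genes passed the threshold, 2 having a lower and 4 a higher mean, with a median log2 difference of 0.12. Bcl2l11 encodes BIM, the BH3-only protein that removes T cells after activation. Its values were 8.80, 8.92, 9.11 and 8.85 in PBS and 8.86, 8.91, 8.41 and 8.84 in hBD-2, and the groups overlapped except for a low hBD-2 replicate 3. For Bcl2l11 the log2 difference was -0.16 (95% confidence interval -0.44 to 0.11, limma adjusted p = 0.475). It was -0.050 without that array, -0.10 without PBS replicate 3, and -0.057 with quantile normalization repeated. Bid, which caspase-8 cuts to link death receptors to mitochondria, was at 5.38 to 5.62 in PBS and 4.78 to 5.43 in hBD-2, a difference of -0.30 (95% confidence interval -0.59 to -0.0043, limma adjusted p = 0.218). Without hBD-2 replicate 3, the 4.78 array, the Bid difference was -0.17 (limma adjusted p = 0.432).

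Hrk, Bmf and Bik encode BH3-only proteins that bind anti-apoptotic BCL-2 proteins. Hrk was at 6.34, 6.14, 6.35 and 6.29 in PBS and 6.25, 6.69, 6.61 and 6.61 in hBD-2, so that 3 of the 4 hBD-2 arrays lay above all PBS arrays. Its log2 difference was 0.26 (95% confidence interval 0.017 to 0.50, limma adjusted p = 0.197). Bmf had a difference of 0.23 (limma adjusted p = 0.266) and Bik one of 0.20 (limma adjusted p = 0.272), both with overlapping groups. Bad, whose activity depends on its phosphorylation, was at 5.92 to 6.14 and 5.66 to 6.33, a difference of 0.028 (95% confidence interval -0.29 to 0.34).

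For the effectors and the released mitochondrial proteins the log2 differences lay between -0.18 and 0.14, and none passed the threshold. Bak1, which forms pores in the outer mitochondrial membrane, was at 8.36 to 8.49 in PBS and 8.63, 8.38, 7.97 and 8.02 in hBD-2. The hBD-2 arrays thus lay on both sides of the PBS arrays, with replicates 3 and 4 low. The log2 difference of Bak1 was -0.17 (95% confidence interval -0.47 to 0.14, limma adjusted p = 0.518). It was -0.29 without hBD-2 replicate 1, -0.074 without replicate 3, -0.091 without replicate 4 and -0.072 with quantile normalization repeated. Bok, a relative of BAK, had a difference of 0.14 (limma adjusted p = 0.558).

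Cycs encodes cytochrome c, which carries electrons in respiration and builds the apoptosome once released. Its values were 9.88, 9.84, 9.73 and 9.91 in PBS and 9.70, 9.68, 9.67 and 9.71 in hBD-2, all hBD-2 arrays being lower by a small amount. Cycs had a log2 difference of -0.15 (95% confidence interval -0.34 to 0.032, limma adjusted p = 0.312), -0.081 with quantile normalization repeated and -0.066 with cyclic loess. Aifm1 and Endog, which encode a flavoprotein and a nuclease of the mitochondria, had differences of -0.13 (limma adjusted p = 0.466) and -0.18 (0.508). Without hBD-2 replicate 4 these were -0.077 and -0.052. Diablo, an antagonist of XIAP, had a difference of -0.011 (95% confidence interval -0.21 to 0.19), which became 0.092 with quantile normalization repeated and 0.073 with cyclic loess.

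All 4 apoptotic caspase genes had a lower mean with hBD-2, and none passed the threshold. The sign was the same with quantile normalization repeated and with cyclic loess, but the sizes were not: Casp2 came to -0.0083 and -0.028, Casp6 to -0.12 and -0.14, Casp8 to -0.11 and -0.095, and Casp9 to -0.15 and -0.15. Casp6, an effector caspase, was at 7.85, 8.09, 8.02 and 7.89 in PBS and 7.66, 7.82, 7.77 and 7.71 in hBD-2. The groups did not overlap, hBD-2 replicate 2 and PBS replicate 1 being nearest to each other. The log2 difference of Casp6 was -0.22 (95% confidence interval -0.43 to -0.021, limma adjusted p = 0.185). Casp2 and Casp9, initiator-type caspases, had differences of -0.12 (limma adjusted p = 0.479) and -0.096 (limma adjusted p = 0.767). Casp9 was at 4.80 in PBS replicate 1 and between 5.05 and 5.55 on the other 7 arrays, and without single arrays its difference ranged from -0.27 to -0.020.

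The inflammatory caspases and gasdermin D act in pyroptosis, a lytic death best known from macrophages. Casp1, which matures interleukin-1 beta, was at 5.52, 5.20, 5.20 and 5.58 in PBS and 5.47, 5.44, 5.65 and 6.00 in hBD-2. The groups overlapped, with hBD-2 replicate 4 highest, and the log2 difference was 0.26 (95% confidence interval -0.046 to 0.57, limma adjusted p = 0.298). Without that array the Casp1 difference was 0.14. Gsdmd, the pore protein that these caspases cut, had a difference of 0.17 (95% confidence interval -0.031 to 0.37, limma adjusted p = 0.302). Casp4, a sensor of intracellular lipopolysaccharide, had one of -0.075 (limma adjusted p = 0.754). The summed signal of the 5 matched macrophage and monocyte markers was 98.4 and 100.3 in hBD-2 replicates 3 and 4, the arrays highest in Casp1, against 71.6 to 95.9 on the other 6 arrays. Of these markers Itgam was past the threshold (log2 difference -0.62) and the other 4 were not. Lyz2 (0.52, at 4.98 and 5.19 in hBD-2 replicates 3 and 4), Cd14 (0.32, without overlap, limma adjusted p = 0.0740) and Csf1r (0.043) had higher means with hBD-2, and Adgre1 (-0.16) a lower one. The same 2 arrays were also highest in the summed mast cell and basophil (201 and 211), dendritic cell (55.7 and 49.8) and platelet markers (366 and 337). They were highest in Klf1 too (41.7 and 45.3). They were not both highest in the natural killer cell (87.2 and 103), neutrophil (59.8 and 75.3), B cell (132 and 515) or T cell sums. These arrays also had the narrowest range of values. The part of any of these cells, or of that range, in the Casp1 values was not tested. Dffa and Dffb encode the inhibitor and the nuclease of apoptotic DNA fragmentation. Their differences were -0.12 (95% confidence interval -0.48 to 0.24) and -0.10 (95% confidence interval -0.38 to 0.17).

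Set side by side, pro-survival and pro-death genes both had medians below 0. Of the 6 pro-survival genes, 1 fell, none rose and 5 did not pass, with a median log2 difference of -0.15. Of the 20 pro-death genes, 1 fell, none rose and 19 did not pass, with a median of -0.086. With the matched genes of further roles added to the pro-death side, the median of those 25 genes was -0.12. Over all named genes the median was 0.020, and over the 11703 genes in the upper range of level it was -0.029. The mean was lower with hBD-2 in 4 of 6 pro-survival genes, 12 of 20 pro-death genes and 5 of 5 genes with further roles, or 67.7% of the 31 genes, against 54.7% of genes in the upper range of level. With quantile normalization repeated the medians were -0.073 for pro-survival and -0.017 for pro-death genes, and with cyclic loess -0.085 and -0.041. Without hBD-2 replicate 2 the pro-survival median was -0.092, and without PBS replicate 2, 3 or 4 the pro-death median was -0.045, -0.050 or -0.033.

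The same comparison can be read array by array as each side's median deviation from the PBS mean of its genes. For pro-survival genes it was -0.017 to 0.030 in PBS and 0.039, -0.22, -0.17 and -0.077 in hBD-2. Replicates 2 to 4 lay below the PBS range and replicate 1 lay above it. For pro-death genes it was -0.033 to 0.055 in PBS and -0.030, -0.052, -0.076 and 0.029 in hBD-2, with overlapping groups. A difference between the sides was not tested.

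Outside the set, 37 of 41 other listed genes of these pathways were matched, and the rest were not analysed here. Of the 37, 4 fell, none rose and 33 did not pass (10 lower and 3 higher at an unadjusted limma p under 0.05), with a median of -0.032. The called share was 10.8%, against 4.46% of all genes and 6.82% of the 11703 genes in the upper range of level. Not all of the 37 lay in that range, since Bcl2l10, Casp12, Nlrp3 and Gsdme were below it. The groups did not overlap in 11 of the 37 (29.7%), against 14.9% of all genes. The list was chosen with earlier results of these data known, so its shares describe the list and are no test of it. The 4 genes that fell were Bnip3, Bnip3l, Htra2 and Tnf. Bnip3 and Bnip3l encode BH3-containing proteins of the outer mitochondrial membrane that mark mitochondria for autophagy and are induced in hypoxia. Bnip3 was at 9.34, 9.41, 9.37 and 9.28 in PBS and 8.66, 8.56, 7.87 and 8.38 in hBD-2, and fell 1.97-fold (log2 difference -0.98, SE 0.15, limma adjusted p = 0.00494). Bnip3l was at 9.75 to 9.84 and 8.91 to 9.22, and fell 1.63-fold (log2 difference -0.70, SE 0.094, limma adjusted p = 0.00219). In both genes the groups were far apart, and both calls held in all 15 alternatives.

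Htra2, a mitochondrial protease that also removes inhibitor-of-apoptosis proteins, was at 7.78, 7.90, 7.60 and 7.69 in PBS and 7.12, 6.97, 7.05 and 7.36 in hBD-2. It fell 1.53-fold (log2 difference -0.62, SE 0.11, limma adjusted p = 0.0104), a call kept in all 15 alternatives (highest 0.0438). Tnf, the ligand of a receptor that signals through TRADD, fell with a log2 difference of -0.59 (limma adjusted p = 0.0441). That call was lost without PBS replicate 1, 2 or 4 (limma adjusted p = 0.113, 0.0998 and 0.117), without hBD-2 replicate 2, 3 or 4 (0.0654, 0.0921 and 0.105), with quantile normalization repeated (0.0630), with cyclic loess (0.0578) and without hBD-2 replicates 3 and 4 together (0.265).

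**Figure D3:**
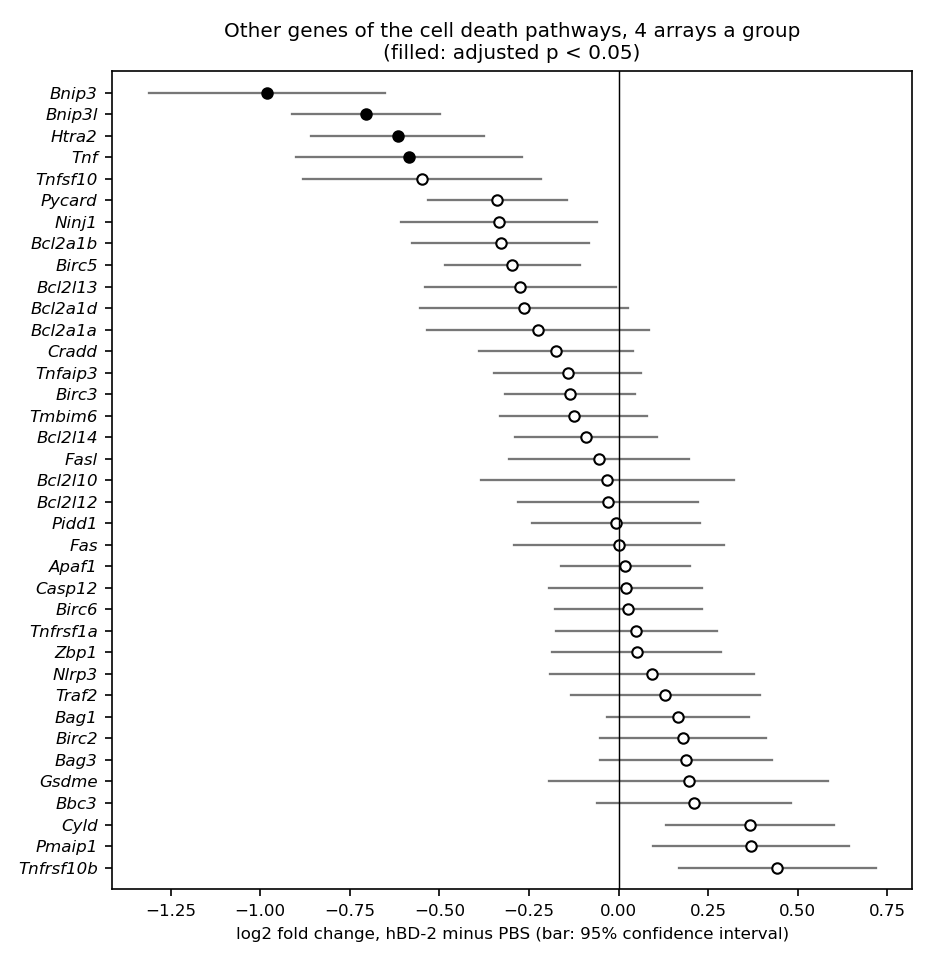
Log2 fold change, hBD-2 minus PBS, in log2 units (x axis) of the 37 other matched cell death genes (y axis), ordered by value. Points are differences of means over 4 arrays a group, bars are 95% confidence intervals, and filled points mark a limma adjusted p under 0.05. The 4 filled points, from Bnip3 at -0.98 to Tnf at -0.59, are all on the lower side.

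Further genes of this list are named after their values were seen, for their part in T cell death. Fas and its ligand gene Fasl, which drive activation-induced death, had log2 differences of 0.0017 (95% confidence interval -0.29 to 0.30) and -0.055 (95% confidence interval -0.31 to 0.20). Tnfsf10, the ligand TRAIL, was at 6.90 to 7.51 in PBS and 6.38 to 6.88 in hBD-2 without overlap (log2 difference -0.55, limma adjusted p = 0.0649). It passed the threshold without PBS replicate 2 (limma adjusted p = 0.0433). It did not pass with quantile normalization repeated (-0.47, limma adjusted p = 0.105) or without PBS replicate 1 (-0.46, limma adjusted p = 0.166). Its receptor gene Tnfrsf10b, a p53 target, was at 6.34 to 6.89 and 6.99 to 7.24, also without overlap (log2 difference 0.44, limma adjusted p = 0.0711). With quantile normalization repeated Tnfrsf10b was past the threshold at 0.52 (limma adjusted p = 0.0376), and with cyclic loess at 0.50 (0.0451). Without single arrays it never passed (limma adjusted p from 0.0848 to 0.166).

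The p53-induced BH3-only genes Pmaip1 and Bbc3 had log2 differences of 0.37 (limma adjusted p = 0.115) and 0.21 (limma adjusted p = 0.343). Cyld, a deubiquitinase of the RIPK1 complex, had one of 0.37 (limma adjusted p = 0.0773), which passed with quantile normalization repeated (0.0402) and with cyclic loess (0.0406). Without single arrays Cyld never passed (limma adjusted p from 0.0842 to 0.189). Pycard, the adaptor of inflammasomes, had a difference of -0.34 (limma adjusted p = 0.0559), past the threshold without hBD-2 replicate 1 (0.0343). With quantile normalization repeated the Pycard difference was -0.25 (limma adjusted p = 0.0990). Birc5, which encodes the mitotic protein survivin, had a difference of -0.30 (limma adjusted p = 0.0745), and -0.19 (0.214) with quantile normalization repeated. Tnfsf10, Tnfrsf10b, Cyld, Pycard and Birc5 also passed with the filter on level and with trend and robust estimation. The near-identical anti-apoptotic genes Bcl2a1a, Bcl2a1b and Bcl2a1d had differences of -0.23, -0.33 and -0.26, and their probes may not tell the copies apart. Apaf1, the scaffold of the apoptosome, had a difference of 0.019 (95% confidence interval -0.16 to 0.20).

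**Figure D4:**
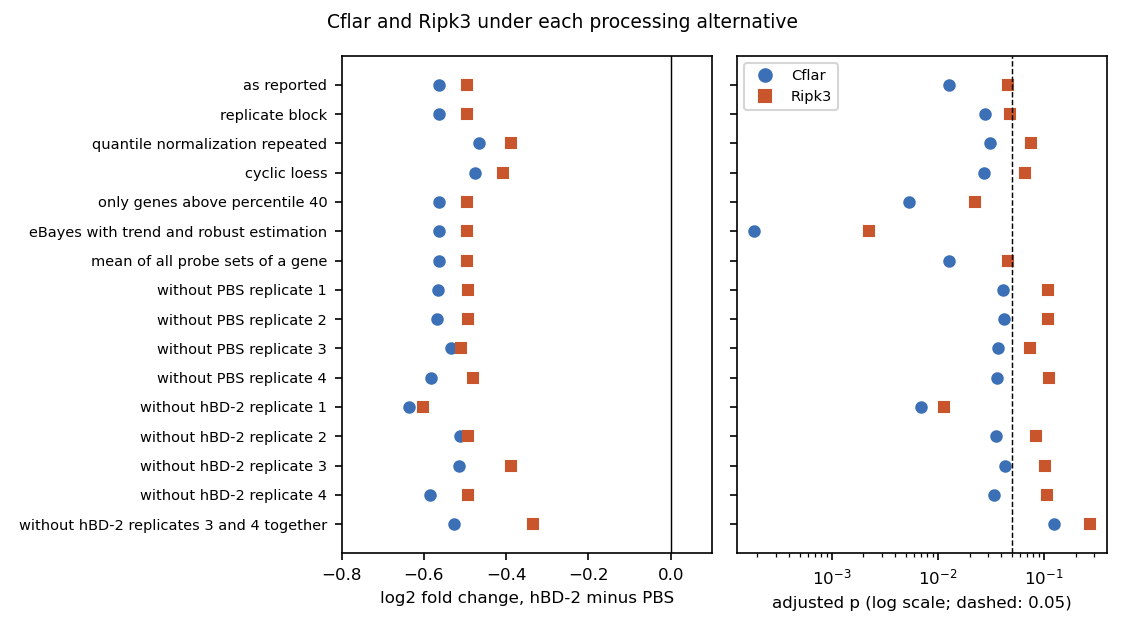
Log2 fold change in log2 units (left x axis) and limma adjusted p on a log scale (right x axis) of Cflar and Ripk3 under each processing alternative (y axis), with a dashed line at 0.05. Cflar is past the threshold in every alternative shown but the one without both hBD-2 replicates 3 and 4 (0.125), and Ripk3 in 5 of 15. Both genes are lower with hBD-2 in all of them. The block, the filter on level, trend and robust estimation and the mean of probe sets leave the differences unchanged.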

How the data were processed

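Expression was measured on 8 one-colour Affymetrix arrays, 4 a group, grouped by the labels. The authors deposited 1 table of log2 values for 22203 probe sets. Per the submitters' processing notes, oligo and RMA (background correction, normalization between arrays and probe summary) were used, with versions, settings and array build not given in the sources used here. RMA pulls low signals to a floor, so folds of dim genes are understated. The platform annotation gave 1 symbol for 19572 probe sets, none several, and did not list 2631; looked up by gene identifier in the GRCm38.p6 table, no symbol changed. Where a gene had more than 1 probe set (55 genes), only the brightest on average was used, leaving 19505 genes.

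The group difference was fitted by lmFit and eBayes of limma 3.58.1 (R 4.3.3), without a block. Its two-sided p-values were adjusted by Benjamini-Hochberg across the 19505 genes, with a threshold of 0.05. Every adjusted p is from this fit unless an alternative is named, and the fit was tested on simulated data. A gene is called where it passes this threshold. All members are named, as are the pathway genes past the threshold; naming any other pathway gene was a choice made with its values in view. The members, roles and lists were chosen with earlier results of these data known. The alternatives were a replicate block, quantile normalization, cyclic loess, a filter at the percentile 40 of mean level, trend and robust estimation, the mean of probe sets, and arrays left out. The number of arrays limits the precision.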

Additional observations from a re-analysis of the deposited data

Results flagged for a closer look

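Dixon's ratio was applied to the 4 arrays of each group for the 31 members and 17 named pathway genes, 96 pairs of gene and group. In 5 of them 1 array stood apart, and chance alone sets about 1 in 20 groups apart. Casp8 was at 10.25 in hBD-2 replicate 3 against 10.58 in the other hBD-2 arrays. Bcl2l11 was at 8.41 in the same replicate against 8.84 to 8.91. Casp9 was at 4.80 in PBS replicate 1 against 5.45 to 5.55 in the other PBS arrays. Birc5 was at 8.67 in hBD-2 replicate 4 against 8.77 to 8.78, a small gap in a tight group. Bbc3 was at 5.82 in PBS replicate 4 against 6.24 to 6.31. The means of Casp8 and Bcl2l11 given above include the low array, and neither gene was past the threshold with or without it.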

How the results depend on the processing

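Of the 31 genes, 24 kept the sign of their difference in every alternative and 7 did not, none of the 7 being past the threshold in any. Cflar kept its call in 14 of 15 alternatives and Ripk3 in 5. These counts include the mean of probe sets, which could not change the values of a member, because no member had several probe sets. The block, the filter on level and trend and robust estimation changed p-values but left the differences as they were. None of these settings could therefore turn a sign. The number of members past the threshold was 1 with quantile normalization or cyclic loess, 1 to 3 without single arrays, and 0 by limma (3 at an unadjusted p under 0.05) without hBD-2 replicates 3 and 4 together, which leaves 6 arrays. Over all genes, 869 calls became 1541 with the filter on level, 2033 with trend and robust estimation, 312 to 1396 without single arrays (PBS replicates 1, 2 and 4: 312, 338 and 373, hBD-2 replicates 1, 3 and 4: 1396, 390 and 363) and 128 without those 2 arrays. The median of pro-death genes was -0.017 and -0.041 with quantile normalization and cyclic loess, and -0.097 to -0.033 without single arrays. That of pro-survival genes was -0.18 to -0.092 without single arrays, and -0.088 where both hBD-2 replicates 3 and 4 were dropped. The cause was not tested. Signs turned for Diablo (0.092 and 0.073 with the 2 normalizations), and without hBD-2 replicates 3 and 4 together for Diablo (0.035), Bad (-0.24), Bak1 (0.087), Bok (-0.048) and Dffa (0.099). Without single arrays the signs of Bad (-0.070 to 0.15), Diablo (-0.056 to 0.026), Casp4 (-0.15 to 0.010), Dffa (-0.22 to 0.021), Dffb (-0.18 to 0.0057), Fas (-0.12 to 0.10) and Fasl (-0.15 to 0.0048) turned.

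With the replicate number as a block, 857 genes and 2 members were called, Cflar at a limma adjusted p of 0.0281 and Ripk3 at 0.0485. Same-numbered arrays correlated in their deviations from the group means at 0.0048 to 0.18, and arrays of different number at -0.15 to 0.091. Of the 4 PBS arrays, 2 correlated best with their own number. The summed B cell markers were highest in replicates 2 and 4 of both groups (275 and 299.9 in PBS, 494 and 515 in hBD-2). Whether same-numbered arrays share a mouse is not known from the labels. The main fit therefore took no pairs, and the block is given as an alternative. Among named genes, only Tnfsf10 (0.0233) and Tnfrsf10b (0.0486) gained a call under the block.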
